A study of Mus musculus with 23 samples.

Results

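This comparison sets conventional CD4+ T cells of the gut against conventional CD4+ T cells that expanded in lymphocyte-free hosts. Its members are 5 of the 23 arrays of the series, chosen by their titles and not by measured values. LP Tconv are 2 arrays of CD4+ Foxp3-GFP- cells from the small intestinal lamina propria of C57BL/6-Foxp3/GFP mice, in which green fluorescent protein reports Foxp3. Homeostatic Foxp3- are 3 arrays of CD4+ cells that were Foxp3-GFP- when taken from BDC2.5/NOD donors and GFP- again 14 days after intravenous transfer into NOD RAG-/- mice. They were recovered from pooled spleen and lymph nodes. BDC2.5 mice carry a transgenic T cell receptor against a pancreatic islet antigen, and RAG-/- hosts lack T and B lymphocytes, although their myeloid, erythroid and NK cells remain. All mice were male and 6 to 10 weeks old. Each LP Tconv array holds RNA pooled from 4 to 6 mice, and each homeostatic array RNA from 2 to 3 mice. Both sorts took CD3+ cells and gated out B220, CD8a and CD11b/c, and RNA was amplified in 2 rounds before hybridisation to Affymetrix M430v2 arrays.

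The same gut and transfer systems also gave Foxp3-GFP+ cells: LP Treg (2 arrays) and Homeostatic Foxp3+ (3 arrays). Homeostatic Foxp3+ cells came from the same transfers of GFP- cells and had become GFP+ in the hosts. The 3 lymph node Treg subsets of C57BL/6-Foxp3/GFP mice, split by CD103 and Klrg1 (2 arrays each), and DEC CD25+ (3 arrays) and DEC CD25- cells (4 arrays) of Balb/c background served to place the levels. DEC cells were HA6.5/Thy1.2/RAG-/- T cells taken 3 weeks after transfer into Balb/c mice that received 50 ng of DEC-HAPeptide. Between LP Tconv and homeostatic Foxp3- cells, mouse strain, site, T cell receptor repertoire, host and the number of mice per pool all differ and cannot be told apart.

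The lamina propria of the small intestine holds antigen-experienced T cells that are guided there by Ccr9 and by integrins, are retained by residency molecules such as CD69, and make IL-17A, IL-21 and interferon gamma. Ligands from diet and microbes act on these cells through the aryl hydrocarbon receptor. T cells placed in a lymphopenic host divide in response to self peptides, microbial antigen and IL-7, and take on features of memory cells, among them Eomes and killer cell receptors.

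Of 12516 genes tested, 1972 (15.8%) differed between LP Tconv and homeostatic Foxp3- cells with an adjusted p under 0.05 by limma, hereafter called. Of these, 975 (7.79% of the genes tested) were higher and 997 (7.97%) lower in LP Tconv, and 1272 differed at least 2-fold. Leaving out LP Tconv replicate 2 reduced the count to 755, of which 680 were among the 1972, whereas leaving out LP Tconv replicate 1 gave 2451. The LP Tconv arrays were less alike (r = 0.963 over all probe sets) than the homeostatic Foxp3- arrays (mean r with their own group 0.985 to 0.987). They also differed in the 3′ minus 5′ signal of the Gapdh control, which was 3.17 and 1.63 on the log2 scale, against 2.73 to 3.04 in homeostatic Foxp3- cells. Whether this gap in RNA quality had a part in the spread was not tested. Levels below are RMA intensities on the log2 scale, and differences are log2 fold changes of LP Tconv over homeostatic Foxp3- with their standard error. This error rests on a spread pooled over all 9 groups, so it does not reflect the wider spread of LP Tconv.

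The genes used for the sort and for T cell identity were not called between the groups. These 10 genes, Cd3e and Cd4 among them, had a median difference of -0.14. With 1 array left out, up to 2 of them were called higher and up to 1 lower. Several, such as Cd3e, Cd2 and Cd5, also changed direction. Cd4 lay at 10.41 and 10.46 in LP Tconv, against 10.13 to 10.62 in homeostatic Foxp3- cells. Foxp3, the Treg lineage factor used for the sort, lay at 4.73 and 4.57 in LP Tconv and at 4.71 to 4.81 in homeostatic Foxp3- cells, whereas LP Treg averaged 11.21. Both Foxp3- groups lay below the median of all values (6.27), which served as the filter. Levels below it were treated as near background, without a detection call. Cd8a gave 6.97 and 6.86 in LP Tconv, against 6.85 to 7.29 in homeostatic Foxp3- cells.

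The chemokine receptor and cytokine genes that mark gut T cells separated the groups. Ccr9, the receptor for the small intestinal chemokine CCL25, reached 12.81 and 12.23 in LP Tconv, against 7.28, 7.71 and 7.24 in homeostatic Foxp3- cells. It was 34.5-fold higher in LP Tconv (log2 fold change 5.11 ± 0.55 SE, adjusted p = 7.64e-06, limma). Il17a, the signature cytokine of Th17 cells, gave 12.17 and 10.65 in LP Tconv, against 7.27, 7.53 and 7.24 in homeostatic Foxp3- cells, a 16.7-fold difference (4.06 ± 0.30, adjusted p = 8.04e-08). Both LP Tconv arrays stood far above all homeostatic ones, but LP Tconv replicate 1 was the higher for both genes. Il21, which encodes a cytokine acting on B cells and on T cells themselves, showed the same unevenness, with 12.13 and 10.17 in LP Tconv, against 7.62, 8.07 and 7.66 in homeostatic Foxp3- cells. Its difference was 10.3-fold (3.37 ± 0.64, adjusted p = 0.00159).

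Cxcr6, a receptor that holds effector cells in tissues, was also high in the transferred cells. It lay at 11.33 and 11.31 in LP Tconv, against 10.66, 8.94 and 9.64 in homeostatic Foxp3- cells, and was 2.97-fold higher in LP Tconv (1.57 ± 0.42, adjusted p = 0.0166). The call on Cxcr6 was lost when either LP Tconv array or homeostatic Foxp3- replicate 2 was left out. Tnfsf14, which encodes the TNF family ligand LIGHT, was not called: its level was 8.34 and 8.66 in LP Tconv, against 9.30, 8.21 and 8.49 in homeostatic Foxp3- cells (-0.17 ± 0.29, adjusted p = 0.737), and the groups overlapped. It was however high in both groups, since LP Treg averaged 5.53 and homeostatic Foxp3+ cells 4.79, the lymph node Treg arrays reached at most 6.57 and the DEC arrays at most 6.30. The second Tnfsf14 probe set pointed the other way. In Foxp3+ cells of the gut, Il17a (7.16) and Il21 (6.16) remained near the levels of the other groups, whereas Ccr9 averaged 13.10.

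**Figure D1:**
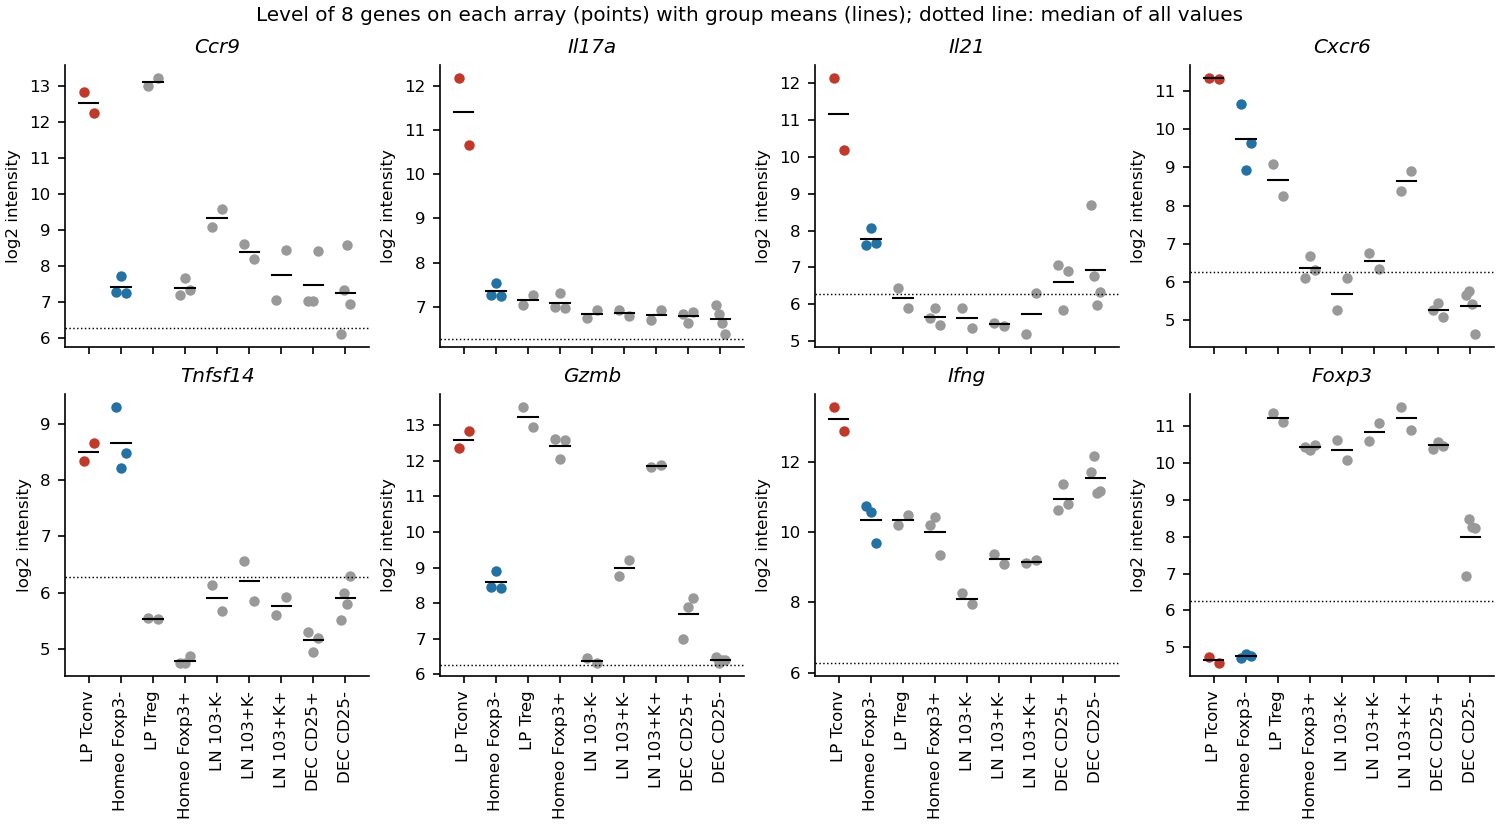
Log2 intensity of 8 genes on each of the 23 arrays (points), by group along the horizontal axis, with group means as lines, LP Tconv in red, homeostatic Foxp3- in blue and the other groups in grey; the dotted line is the median of all values, 6.27. Both LP Tconv arrays stand above every other array for Il17a, Il21 and Ifng, while Ccr9 is as high in LP Treg, Tnfsf14 is high in both Foxp3- groups and Gzmb is low in homeostatic Foxp3- cells alone of the 4 gut and homeostatic groups.

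Helper programs were compared list by list. Their counts, and those of every later list, are read against the 7.79% of all genes tested that rose and the 7.97% that fell. Of 11 Th17 genes tested, 7 rose and 1 fell (median 1.21, against 0.003 over all genes tested). Beside the cytokines, the risers included Ahr, a ligand-activated factor, Maf, a factor for IL-10 and IL-21 (12.60 and 12.23 in LP Tconv, against 10.35 to 10.43 in homeostatic Foxp3- cells), and Rora, a retinoid-related orphan receptor (1.29 ± 0.32, adjusted p = 0.012), for which 6 of 9 probe sets agreed in direction. Csf2, which encodes the cytokine GM-CSF, moved against the list: 6.13 and 6.04 in LP Tconv, against 6.72 to 7.21 in homeostatic Foxp3- cells, at least 1.83-fold lower. The count of Th17 risers was 4 when LP Tconv replicate 2 or homeostatic Foxp3- replicate 3 was left out.

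Of 10 Th1 genes, 5 rose and 1 fell (median 0.84). Ifng, which encodes interferon gamma, lay at 13.55 and 12.88 in LP Tconv, against 10.75, 10.57 and 9.68 in homeostatic Foxp3- cells, and was 7.37-fold higher (2.88 ± 0.38, adjusted p = 5.94e-05). Stat4, the signal transducer of the IL-12 receptor, rose 4.30-fold, and the IL-18 receptor genes Il18rap and Il18r1 rose 2.57-fold and 1.92-fold. The call on Il18r1 was lost with quantile or cyclic loess normalization and without homeostatic replicate 3. Il12rb2 rose at least 1.79-fold from a level below the median of all values. Eomes, a T-box factor of memory and cytotoxic cells, fell: it was 5.75 and 6.53 in LP Tconv, against 11.06, 10.48 and 10.64 in homeostatic Foxp3- cells, at least 24-fold lower (-4.59 ± 0.44, adjusted p = 2.35e-06). Only 2 Th1 genes rose when LP Tconv replicate 2 was omitted. Of 6 Th2 genes, 0 rose and 2 fell. Of 12 follicular helper genes 0 rose and 2 fell, a share near the 15.8% of all genes called. The 2 were Cd200, an inhibitory ligand (-1.76 ± 0.47), and Slamf6, a homotypic adhesion receptor (-1.56 ± 0.24). Of the 3 Slamf6 probe sets, 2 agreed in direction. Without LP Tconv replicate 1 the follicular helper count was 5. Gata3, the Th2 lineage factor, gave 7.71 and 7.91 in LP Tconv, against 8.45 to 8.87 in homeostatic Foxp3- cells, and was not called (adjusted p = 0.124).

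Cytotoxic effector genes and killer cell receptors moved apart. Of 13 genes, 4 rose and 4 fell, against 7.79% and 7.97% of all genes tested. Gzmb, which encodes the protease granzyme B, was 12.35 and 12.83 in LP Tconv, against 8.44, 8.89 and 8.42 in homeostatic Foxp3- cells, a 16-fold rise (4.00 ± 0.29, adjusted p = 6.08e-08). Fasl, the death ligand, rose 6.59-fold (12.25 and 12 in LP Tconv, against 9.14 to 9.75 in homeostatic Foxp3- cells). The receptors on the other side are known from NK and memory cells. Klrg1 fell 9.07-fold (8.11 and 7.97 in LP Tconv, against 11.79, 10.59 and 11.28 in homeostatic Foxp3- cells). Klrd1, the CD94 chain, fell 6.68-fold, with 8.12 and 8.15 in LP Tconv and 10.84 to 10.92 in homeostatic Foxp3- cells. Klre1 fell at least 3.74-fold, and Klrk1, which encodes NKG2D, at least 2.26-fold. Omitting LP Tconv replicate 2 left 2 risers in the list. The sum of 11 CD8 T and NK cell markers, among them Eomes, Klrd1 and Klre1, was 846 and 1160 intensity units in LP Tconv, against 3950 to 4490 in homeostatic Foxp3- cells. Of the 8 tested, 2 rose (Xcl1 and Crtam) and 4 fell (Eomes, Klrd1, Klre1 and Ncr1), or 1 and 2 without LP Tconv replicate 2. Ncr1, the NK receptor NKp46, was below the median of all values in LP Tconv (5.24 and 5.21) and lay at 6.40, 7.34 and 6.19 in homeostatic Foxp3- cells. In bulk samples, fewer cells of a type and less RNA per cell cannot be told apart, and the part of NK cells in these values was not tested.

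Genes of gut homing and tissue residency rose in 7 of 13 cases and fell in 2 (median 1.32). Rgs1, a brake on chemokine receptor signalling, gave 12.91 and 13.49 in LP Tconv, against 9.63, 11.01 and 8.32 in homeostatic Foxp3- cells (11.7-fold). Prdm1, which encodes the effector factor Blimp-1, rose 4.71-fold, and Cd69, which retains cells in tissue, 3.24-fold. The call on Cd69 was lost without homeostatic replicate 1 or 3, and with array weights or only the arrays compared. Itga1, the collagen-binding integrin chain CD49a, lay at 7.24 and 7.48 in LP Tconv, against 5.70 to 5.94 in homeostatic Foxp3- cells (at least 2.93-fold), although its second probe set did not share the direction. Gpr15, a homing receptor of the large intestine, moved the other way: 6.45 and 6.69 in LP Tconv, against 10.16, 8.85 and 9.56 in homeostatic Foxp3- cells (7.75-fold lower). Ccr10, a receptor for skin and mucosal chemokines, fell 2.14-fold. Either LP Tconv array left out alone reduced the risers to 4. Among 14 chemokine receptors 4 rose and 3 fell, the largest fall being Cx3cr1, the fractalkine receptor (at least 4.19-fold). The risers numbered 1 without LP Tconv replicate 2, and 2 without LP Tconv replicate 1 or homeostatic replicate 2 or 3. Of 8 recirculation genes only Gpr183, an oxysterol receptor, was called (5.14-fold higher), while S1pr1 and Ccr7, which lead cells through lymph nodes, were not.

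Of 17 retinoic acid, aryl hydrocarbon receptor (AhR) and TGF-beta response genes, 4 rose and 3 fell (median 0.17). The risers were Ahr and 3 genes known as its targets, Ahrr, Tiparp and Cyp1b1. AhR binds to DNA with a partner at a short core motif and induces its own repressor Ahrr, the ADP-ribosyltransferase Tiparp and cytochromes of the Cyp1 family. Ahrr was 10.03 and 9.16 in LP Tconv, against 5.41, 5.55 and 5.39 in homeostatic Foxp3- cells, at least 17.7-fold higher (4.14 ± 0.35, adjusted p = 5.04e-07). Ahr itself was 12.53 and 12.68 in LP Tconv, against 10.61, 10.02 and 9.82 in homeostatic Foxp3- cells (5.49-fold). Tiparp rose 5.24-fold, with 11.25 and 11.10 in LP Tconv and 8.55 to 9.16 in homeostatic Foxp3- cells. Cyp1b1 was 8.23 and 7.74 in LP Tconv, against 6.18 to 6.39 in homeostatic Foxp3- cells (3.18-fold), with 2 of 3 probe sets agreeing in direction. The retinoid receptor genes Rxra, Rarb and Rarg fell (1 of these 3 without LP Tconv replicate 2). Rxra was 7.01 and 7.37 in LP Tconv, against 8.36 to 9.15 in homeostatic Foxp3- cells. In the Foxp3+ cells, Ahrr was likewise higher in the gut (3.13 ± 0.35), as was Tiparp (1.96 ± 0.38), and within C57BL/6 mice LP Treg exceeded the lymph node Treg subsets for Ahrr by 3.65 and for Tiparp by 2.03. The gut against homeostatic difference of Cyp1b1 was larger in Foxp3- than in Foxp3+ cells, as given below.

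The 250 bases before the annotated starts of the 3 AhR target genes are shown because all 3 rose; they were singled out after their values were seen. They come from RefSeq (GRCm38.p6) and are written 5′ to 3′ on the strand of the gene, with matches to the AhR core motif GCGTG, searched on both strands (CACGC on the other), in capitals. The windows are Ahrr, chr13:74292332-74292581 (minus strand), Tiparp, chr3:65528197-65528446 (plus strand), and Cyp1b1, chr17:79715062-79715311 (minus strand).
Ahrr: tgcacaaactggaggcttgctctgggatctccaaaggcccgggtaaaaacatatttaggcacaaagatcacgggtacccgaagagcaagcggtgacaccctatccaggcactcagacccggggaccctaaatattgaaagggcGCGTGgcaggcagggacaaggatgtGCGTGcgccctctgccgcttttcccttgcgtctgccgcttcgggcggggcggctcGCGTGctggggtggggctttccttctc
Tiparp: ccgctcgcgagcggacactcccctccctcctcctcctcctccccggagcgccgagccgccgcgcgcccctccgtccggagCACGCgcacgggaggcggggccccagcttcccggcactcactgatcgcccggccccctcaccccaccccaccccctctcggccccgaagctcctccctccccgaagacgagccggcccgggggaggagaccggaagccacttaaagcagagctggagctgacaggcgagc
Cyp1b1: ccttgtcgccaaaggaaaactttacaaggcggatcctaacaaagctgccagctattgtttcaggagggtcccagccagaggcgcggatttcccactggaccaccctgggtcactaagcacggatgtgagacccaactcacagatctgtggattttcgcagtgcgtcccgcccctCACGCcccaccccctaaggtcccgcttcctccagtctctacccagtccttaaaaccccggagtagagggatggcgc
Ahrr held 3 matches, whose first bases lay at -107, -82 and -27 from the start, while Tiparp held 1 at -170 and Cyp1b1 1 at -76. The motif occurs in 28.2% of 32851 windows of this length, so that a match is common and is a description only.

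Heat shock genes rose in 7 of 13 cases, and 0 fell (median 0.79), against 7.79% and 7.97% of all genes tested. The largest were Hspa1a and Hspa1b, neighbouring genes for the inducible chaperone HSP70. Hspa1a was 10.41 and 10.95 in LP Tconv, against 4.89, 5.79 and 4.57 in homeostatic Foxp3- cells, at least 48.5-fold higher (5.60 ± 0.42, adjusted p = 1.03e-07). Hspa1b was 12.75 and 12.77 in LP Tconv, against 7.87, 8.26 and 6.88 in homeostatic Foxp3- cells (34.1-fold). The pair is nearly identical in sequence, so the probe sets may share signal. The HSP110 gene Hsph1 rose 2.16-fold, the co-chaperone gene Dnaja1 2.12-fold and the endoplasmic reticulum chaperone gene Hspa5 1.82-fold. For Dnaja1 the call was lost on omission of any 1 homeostatic array. The count was 3 without LP Tconv replicate 2 and 4 without homeostatic replicate 1 or 3. In Foxp3+ cells Hspa1a (4.71 ± 0.42) and Hspa1b (5.30 ± 0.75) were likewise higher in the gut, and within C57BL/6 mice LP Treg exceeded the lymph node Treg subsets by 5.14 and 5.11. Gut cells were isolated from tissue and the homeostatic cells from spleen and lymph nodes, and the part of cell isolation in these values was not tested.

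The corresponding windows of the HSP70 pair are shown to let the reader compare them, with the heat shock element unit GAANNTTC, which reads the same on both strands, in capitals. They are Hspa1a, chr17:34972157-34972406, and Hspa1b, chr17:34959239-34959488, both on the minus strand.
Hspa1a: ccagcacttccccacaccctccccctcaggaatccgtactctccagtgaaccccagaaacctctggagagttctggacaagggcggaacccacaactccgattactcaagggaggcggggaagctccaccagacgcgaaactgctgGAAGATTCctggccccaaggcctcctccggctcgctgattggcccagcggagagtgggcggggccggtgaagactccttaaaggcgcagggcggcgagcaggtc
Hspa1b: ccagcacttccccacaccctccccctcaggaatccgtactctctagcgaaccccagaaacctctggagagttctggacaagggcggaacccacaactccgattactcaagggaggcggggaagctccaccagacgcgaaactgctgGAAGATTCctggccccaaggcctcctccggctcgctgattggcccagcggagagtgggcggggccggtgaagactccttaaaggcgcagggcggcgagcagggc
The windows are identical at 98.8% of their 250 positions, and each holds 1 match, at -104 from the start. The unit occurs in 6.69% of all windows, and was found in 1 of the 3 windows of Dnaja1, at -124, and in none of Hsph1, Hspa5 and Hspa4.

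Immediate early and NF-kB response genes had a median of 1.11, but of 31 only 4 rose and 1 fell, a share near the 15.8% of all genes called. Gadd45b, a stress-induced regulator, rose 9.55-fold (12.01 and 10.97 in LP Tconv, against 7.86, 9.02 and 7.83 in homeostatic Foxp3- cells). Nr4a3, an orphan nuclear receptor induced by antigen receptor signals, rose 4.33-fold, and Ier3 fell 8.95-fold (7.57 and 6.00 in LP Tconv, against 9.59 to 10.19 in homeostatic Foxp3- cells). With LP Tconv replicate 1 left out, 1 gene rose and 3 fell; omitting homeostatic replicate 2 gave 8 risers, and omitting homeostatic replicate 3 gave 2.

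Effector transcription factors and checkpoint genes differed as well. Of 28 transcription factors, 8 rose and 3 fell, against 7.79% and 7.97% of all genes tested. Hopx, a homeodomain-only protein, rose 4.71-fold (11.02 and 11.36 in LP Tconv, against 8.76 to 9.13 in homeostatic Foxp3- cells), and Ikzf3, which encodes Aiolos, 4.69-fold (11.76 and 12.10 in LP Tconv, against 9.26 to 9.95 in homeostatic Foxp3- cells). Its relatives Ikzf4 and Ikzf2 fell, with Ikzf4 at 7.25 and 7.48 in LP Tconv, against 8.81 to 8.83 in homeostatic Foxp3- cells. Ctla4, the inhibitory receptor, was 13.43 and 12.78 in LP Tconv, against 8.29, 10.71 and 7.68 in homeostatic Foxp3- cells (18.5-fold), with homeostatic replicate 2 well above the other homeostatic arrays. Il10 was 10.53 and 9.04 in LP Tconv, against 6.45 to 6.54 in homeostatic Foxp3- cells (9.83-fold). These belong to a list of 17 Treg genes, of which 3 rose and 6 fell; the list was drawn up for Foxp3+ cells. Nrp1, the semaphorin receptor neuropilin-1, was among those that fell, at 7.73 and 7.24 in LP Tconv, against 11.38, 10.76 and 10.62 in homeostatic Foxp3- cells (10.8-fold lower). Ebi3, a subunit of IL-27 and IL-35, fell 5.49-fold.

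Of 23 genes of the T cell receptor complex and its proximal signalling, 3 rose and 1 fell. Over all genes tested, 7.79% rose and 7.97% fell. Ubash3a, a phosphatase family member, was 9.09 and 9.50 in LP Tconv, against 5.89, 6.21 and 7.09 in homeostatic Foxp3- cells (7.48-fold), and Cblb, a ubiquitin ligase, rose 5.17-fold. Rasgrp1, which activates Ras, rose 2.10-fold, and Dgkz, which removes the Rasgrp1 activator diacylglycerol, fell 2.60-fold, while its second probe set did not share the direction. These were all the called genes of that list, and without LP Tconv replicate 1 the risers numbered 7. Cytokine receptors gave 6 risers and 0 fallers of 26, with Il12rb1, the shared chain of the IL-12 and IL-23 receptors, the clearest (9.85 and 9.30 in LP Tconv, against 7.33 to 7.81 in homeostatic Foxp3- cells, 3.97-fold), but 2 risers without LP Tconv replicate 2.

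Other surface and signalling families are read against the 15.8% of all genes that were called. Of 19 inhibitory and costimulatory receptors, 5 rose and 2 fell, with 8 risers without LP Tconv replicate 1 and 3 without LP Tconv replicate 2. Slamf1, a homotypic receptor of activated lymphocytes, was 11.19 and 11.49 in LP Tconv, against 9.37 to 9.62 in homeostatic Foxp3- cells (3.51-fold), and Cd160, a ligand of the same receptor as BTLA, was uneven at 7.42 and 8.74 in LP Tconv, against 6.79 to 6.86 in homeostatic Foxp3- cells. Of 12 TNF family ligands 1 rose (Fasl) and 2 fell, among them Lta, which encodes lymphotoxin alpha, at 6.27 and 7.29 in LP Tconv, against 8.20 to 8.40 in homeostatic Foxp3- cells (2.88-fold lower). Of 12 TNF receptors 2 fell, but 0 did so without LP Tconv replicate 1 or without homeostatic replicate 3. Among 12 chemokines 2 rose and 2 fell: Xcl1 was at least 5.83-fold higher and Ccl9 was lower, while the calls on Ccl20 (higher) and Ccl22 (lower) were lost on omission of any 1 array for Ccl20, and of LP Tconv replicate 2 or homeostatic replicate 2 for Ccl22. Of 25 interferon-induced genes 2 rose and 2 fell. The antiviral gene Rsad2 was 9.95 and 8.84 in LP Tconv, against 10.85, 13.07 and 11.61 in homeostatic Foxp3- cells, again highest on homeostatic replicate 2. Without LP Tconv replicate 1 the interferon-induced risers numbered 7, and without LP Tconv replicate 2 or homeostatic replicate 2 there was 1 riser and 0 fell.

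Lipid synthesis, glycolysis and cell cycle genes were also compared. Of 17 genes of cholesterol and fatty acid synthesis, 6 rose and 1 fell (median 0.65): Idi1 rose 3.41-fold, Cyp51 3.34-fold and Sqle 3.15-fold, all enzymes of the sterol path, and the desaturase gene Scd2 fell 2.40-fold. The call on Scd2 was lost without homeostatic replicate 1 or 3. The risers numbered 3 when LP Tconv replicate 2 was omitted. Pdk1, a kinase that limits entry of pyruvate into mitochondria, was the called gene of 16 glycolysis and hypoxia genes (8.75-fold higher). Of 42 cell cycle genes, 0 rose and 11 fell (median -0.69), against 7.79% and 7.97% of all genes tested. The mitotic genes Tpx2 and Cdc20 and the ribonucleotide reductase gene Rrm2 were lower in LP Tconv by 4.44-fold, 3.94-fold and 4.06-fold. Rrm2 lay at 9.97 and 9.83 in LP Tconv, against 11.68 to 12.29 in homeostatic Foxp3- cells. Every omission of an array lowered this count: to 4 for LP Tconv replicate 2, 6 for LP Tconv replicate 1, and 7, 5 and 6 for homeostatic replicates 1, 2 and 3. In Foxp3+ cells 34 of the 42 fell (median -1.86). The 13 naive and central T cell genes had a median of -0.17 in this comparison and of -1.35 in Foxp3+ cells, where 7 fell.

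S100 proteins, annexins and galectins were mostly lower, with 12 of 19 called lower, 1 higher and a median of -1.21. Over all genes tested, 7.97% were called lower and 7.79% higher. Anxa1, a regulator of inflammation, was 6.47 and 6.17 in LP Tconv, against 11.33, 11.26 and 10.34 in homeostatic Foxp3- cells (25.2-fold lower, adjusted p = 1.57e-08). S100a4, which modulates cell motility, was 7.95 and 8.08 in LP Tconv, against 12.11 to 12.38 in homeostatic Foxp3- cells (19.0-fold lower), and S100a6 fell 10.5-fold. The 3 homeostatic arrays lay close together for S100a4 and S100a6. The neutrophil and monocyte genes S100a8 and S100a9 also fell, by at least 27.2-fold and at least 24.3-fold, but were uneven, with S100a8 at 9.10, 10.75 and 8.80 in homeostatic Foxp3- cells. The exception was Lgals4, a galectin of gut epithelium, which rose 2.59-fold (adjusted p = 0.046, limma), a call that was lost on omission of any 1 of the 5 arrays.

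**Figure D2:**
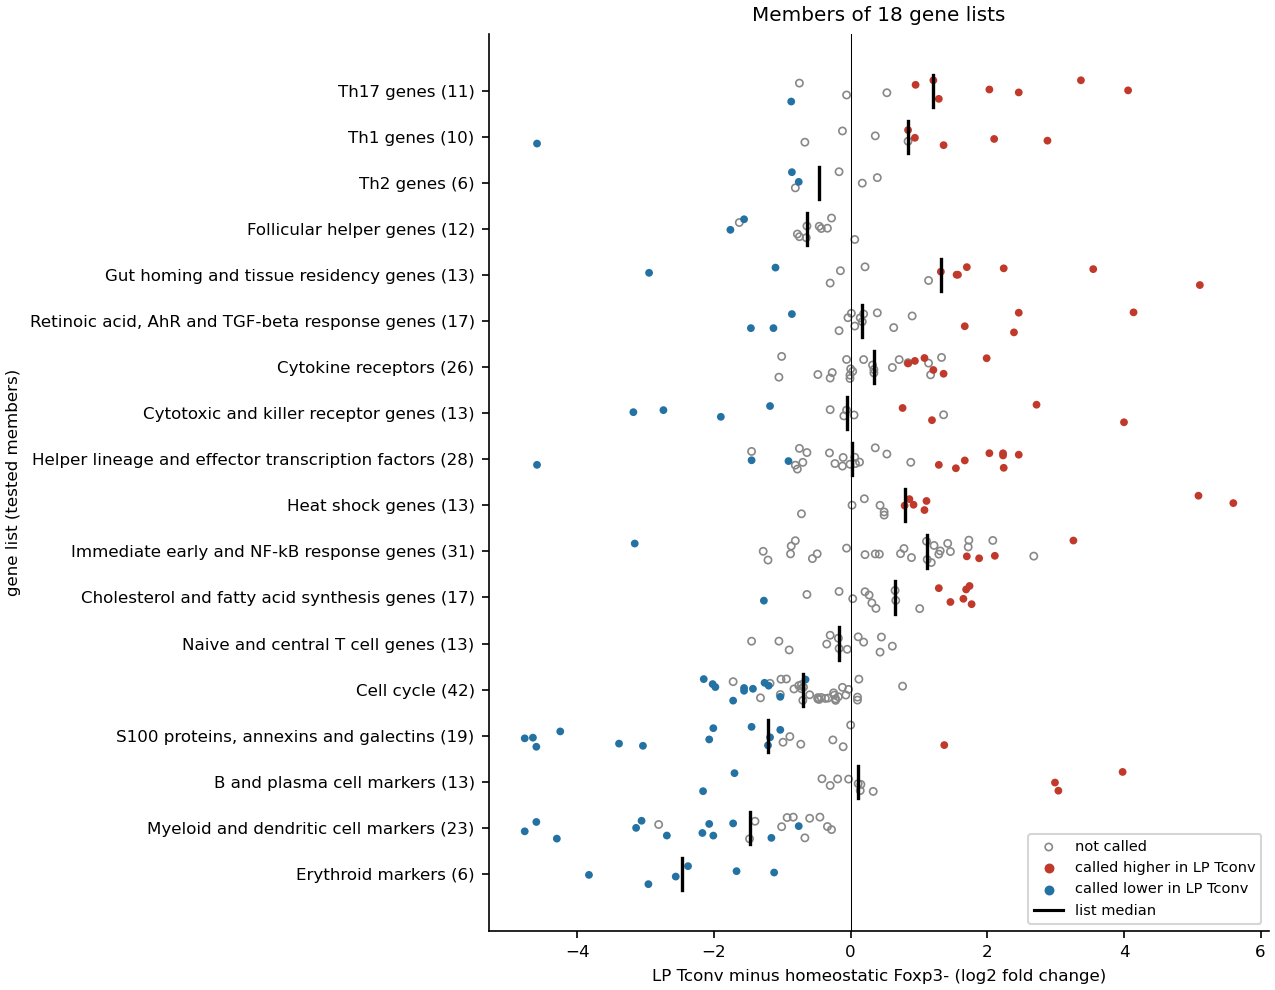
Log2 fold change of LP Tconv over homeostatic Foxp3- for each tested member of 18 gene lists (points), filled red where called higher, filled blue where called lower and open where not called; black bars are list medians and the number of members is in brackets. Th17, gut homing and heat shock genes lie mostly to the right, while S100, myeloid and erythroid genes lie to the left.

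Myeloid and erythroid markers were lower in LP Tconv than in the transferred cells. Of 23 myeloid and dendritic markers, 12 were lower in LP Tconv and 0 higher, and of 6 erythroid markers all 6 were lower. Over all genes tested, 7.97% were lower. The 24 myeloid markers summed to 7920 and 8910 intensity units in LP Tconv, against 17500, 32100 and 19600 in homeostatic Foxp3- cells. Homeostatic replicate 2 had the highest level of all 12 called myeloid and all 6 erythroid markers. Of all 997 genes called lower, 378 were highest on replicate 2 and 409 on replicate 1. The 7 erythroid markers summed to 688 and 752 in LP Tconv, against 1760, 10800 and 3910 in homeostatic Foxp3- cells. Lyz2, the lysozyme of macrophages, was 6.57 and 7.29 in LP Tconv, against 10.42, 12.26 and 11.03 in homeostatic Foxp3- cells, and the haem synthesis gene Alas2 was 5.98 and 5.77 in LP Tconv, against 7.76, 11.09 and 10.26 in homeostatic Foxp3- cells. Of 24 myeloid markers, 12 lay below the median of all values in LP Tconv and 1 in homeostatic Foxp3- cells. The count of lower myeloid markers was 6 without LP Tconv replicate 2, and that of erythroid markers 1 without LP Tconv replicate 2, 3 without LP Tconv replicate 1 and 3 without homeostatic replicate 2.

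In the gut samples, immunoglobulin genes were the markers of another cell type that stood out. Jchain, the joining chain of secreted IgA and IgM, was 10.02 and 8.90 in LP Tconv, against 5.34 to 5.62 in homeostatic Foxp3- cells, at least 15.7-fold higher. Igha, the IgA heavy chain, was 9.96 and 10.45 in LP Tconv, against 7.01 to 7.40 in homeostatic Foxp3- cells (7.92-fold), and Ighm rose 8.21-fold on its brightest probe set, while 5 of its 11 probe sets agreed in direction. Pou2af1 and Cd22, which mark B cells, fell 4.47-fold and 3.26-fold. The part of these other cells in the genes described here was not tested. The 8 mast cell and innate lymphoid markers had a median of -0.32, and 1 of 9 stromal markers rose. Epithelial markers did not rise as a group: 1 of 7 was higher (Lgals4) and 1 lower (Lyz1), and the 24 with a probe set summed to 1600 and 1680 in LP Tconv, against 4970 to 8930 in homeostatic Foxp3- cells. Without Lyz1 the other 23 summed to 1510 and 1560 in LP Tconv, against 1630 to 1810 in homeostatic Foxp3- cells. Of 16 listed genes of the major histocompatibility complex, 3 rose (H2-Ob, Tapbp and Tap1) and 4 fell (median -0.17). The calls on Tapbp and Tap1 were lost on omission of any 1 homeostatic array. Over all genes tested, 7.79% rose and 7.97% fell. Among the class II genes, which antigen-presenting cells carry, H2-Eb1 and H2-Aa fell 4.87-fold and 4.19-fold, and H2-Ob rose. Homeostatic replicate 2 was again highest for H2-Eb1 and H2-Aa (11.42 and 12.23).

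**Figure D3:**
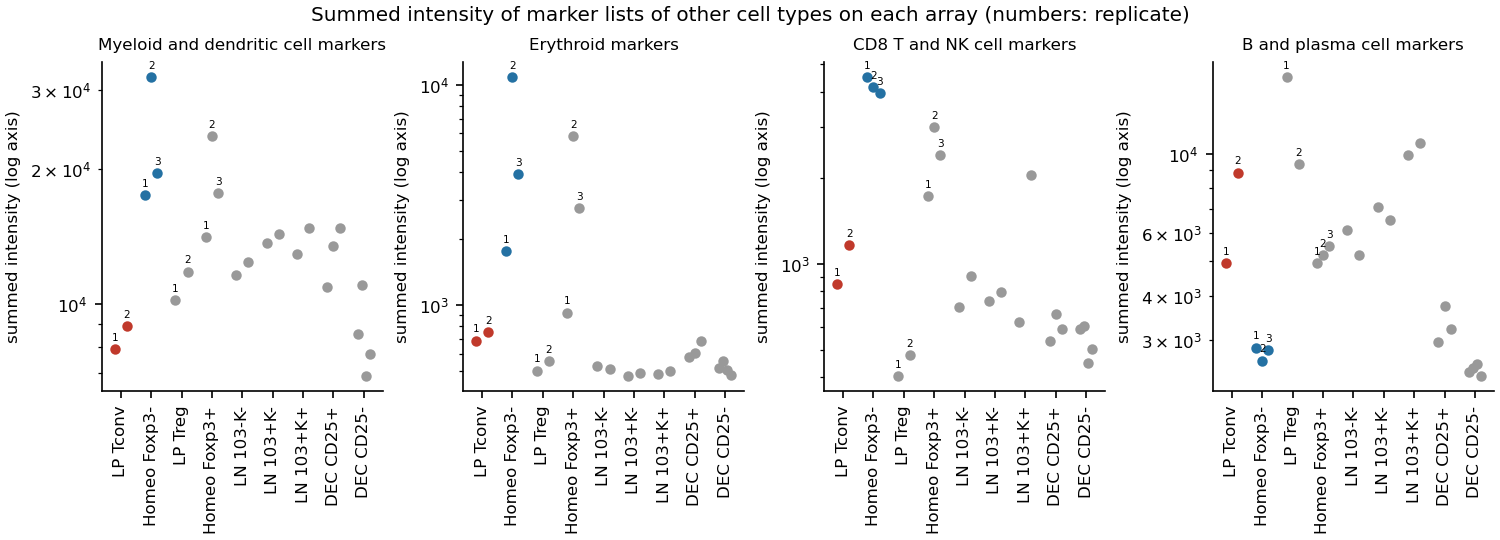
Summed intensity (log axis) of the markers of 4 other cell types on each array, by group, with replicate numbers beside the points of the 4 gut and homeostatic groups. Homeostatic Foxp3- replicate 2 has the highest myeloid and erythroid sums (32100 and 10800). Both LP Tconv arrays exceed all homeostatic Foxp3- arrays for B and plasma cell markers (4930 and 8850, against 2630 to 2860). That sum is not high in gut cells alone: it is 4930 to 5510 in homeostatic Foxp3+ and 9920 to 10700 in LN CD103+Klrg1+ Treg arrays.

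The largest single differences included genes whose levels in lymph node Treg cells of C57BL/6 mice lay with LP Tconv. Trim12c, a member of a tripartite motif family, was 10.62 and 10.49 in LP Tconv, against 3.97 to 4.06 in homeostatic Foxp3- cells, at least 92.7-fold higher, and the 6 lymph node Treg arrays lay between 10.67 and 11.24. Of the 15 largest rises, 6 genes (Trim12c, Trim12a, Ifi213, Mir1931, Spata5l1 and Ctla4) had all 6 lymph node arrays on the LP Tconv side of the midpoint, a share of 40.0%, against 35.1% of the genes called higher and 28.6% of all genes tested. Another 7 (Hspa1a, Ccr9, Hspa1b, Cxcl3, Ahrr, Asb2 and Il17a) had them all on the homeostatic side, 46.7%, against 27.3% of the genes called higher and 22.2% of all tested. Hspa1a, Cxcl3 and Ahrr lay below 6.27 on all lymph node arrays and passed the filter only through gut cells, so their side follows from the choice of genes. Ifi213, of the interferon-inducible Ifi200 family, was 11.08 and 11.08 in LP Tconv, against 6.02 to 6.11 in homeostatic Foxp3- cells, and 10.64 to 11.63 in the lymph node arrays. Asb2, a subunit of a ubiquitin ligase complex, was 10.20 and 12.39 in LP Tconv, against at most 7.40 in homeostatic Foxp3- cells, and 6.11 to 6.67 in the lymph node arrays. Cxcl3, a neutrophil chemokine, was uneven at 9.40 and 5.61 in LP Tconv, against 2.72 to 3.58 in homeostatic Foxp3- cells. Abcb1a, a drug efflux pump gene, was 12.24 and 12.02 in LP Tconv, against 7.71 to 8.27 in homeostatic Foxp3- cells (17.4-fold), and the lymph node arrays fell on both sides of the midpoint. Of the 6 genes whose lymph node arrays all lay with LP Tconv, only Ctla4 also had all 7 DEC arrays on that side. The array does not measure the mature product of Mir1931.

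Of the 15 largest falls, 12 genes had all lymph node Treg arrays and 13 all DEC arrays on the LP Tconv side. These shares were 80.0% for the lymph node arrays, against 41.2% of the genes called lower and 28.6% of all tested, and 86.7% for the DEC arrays, against 36.4% and 16.5%. The shares follow in part from the choice of genes with high homeostatic levels. Ear3, Zfp979, Hemgn, Chil3, S100a8 and S100a9 lay below 6.27 on all lymph node Treg and DEC arrays. They passed the filter only through the homeostatic groups, so no conclusion is drawn from these shares. Zfp979, a zinc finger gene, was 3.39 and 3.01 in LP Tconv, against 8.56, 8.79 and 8.91 in homeostatic Foxp3- cells, at least 46.9-fold lower (adjusted p = 7.31e-11), and lay between 2.94 and 3.80 in all lymph node Treg and DEC arrays. Apol11b, of the apolipoprotein L family, was 4.23 and 3.67 in LP Tconv, against 10.37, 12.61 and 11.70 in homeostatic Foxp3- cells, at least 195-fold lower, the largest fall of the comparison. Ear3, an eosinophil-associated ribonuclease gene, fell at least 135-fold (3.15 and 2.95 in LP Tconv, against 10.23, 11.11 and 9.04 in homeostatic Foxp3- cells). Ifitm1 and Ifitm2, which encode interferon-induced membrane proteins, fell 56.3-fold and at least 31.0-fold, and were even across the homeostatic arrays (Ifitm1 12.31 to 12.87). In contrast, Apol11b, Ear3, Ccl6, Chil3, Hemgn, Adgre4 and Cd24a were highest on homeostatic replicate 2, as were the myeloid and erythroid markers above. Trim12a and Trim12c, Ear3, Ifi213, and Ifitm1 and Ifitm2 belong to families with near-identical members, so the assignment to a single gene is uncertain.

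The same contrast in Foxp3+ cells, which compares other arrays, called 2039 genes (16.3%), 1057 higher and 982 lower in LP Treg than in homeostatic Foxp3+ cells. Both contrasts take the spread of each gene from the same fit over all 23 arrays, so their calls are not independent. Of the 975 genes higher in LP Tconv, 582 (59.7%, or 55.1% of the 1057) were higher in LP Treg, where 8.45% of all tested genes were, and 5 were lower. Of the 997 lower genes, 554 (55.6%, or 56.4% of the 982) were also lower in LP Treg, where 7.85% of all genes were, and 11 were higher. The 2 contrasts differ in the same strain, site and host, and homeostatic arrays of the same number deviated together (r = 0.486 to 0.661 in residuals over genes). Within C57BL/6 mice, 126 of the 975 (12.9%, against 2.16% of all genes) were higher in LP Treg than in the lymph node Treg subsets and 104 of the 997 (10.4%, against 2.71%) lower, while 17 of the 975 and 10 of the 997 were called in the opposite direction. Genes called in that within-strain comparison included Ccr9 (4.61), Ahrr (3.65), Asb2 (3.93), Gzmb (4.15), Igha (3.89) and Jchain (3.92), whereas Trim12c (-0.36), Ifi213 (-0.46) and Spata5l1 (0.10) were not. Without LP Treg replicate 1 the count of the Foxp3+ contrast was 557, and that of the within-strain comparison 116 in place of 609.

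The gut against homeostatic difference itself differed between Foxp3- and Foxp3+ cells for 97 genes (0.775%), 27 (0.216%) with a positive and 70 (0.559%) with a negative difference. Il17a led the positive ones: it was 4.06 ± 0.30 higher in LP Tconv than in homeostatic Foxp3- cells and 0.06 ± 0.30 higher in LP Treg than in homeostatic Foxp3+ cells (difference 4.00 ± 0.42, adjusted p = 7.68e-05). Gzmb followed (3.20 ± 0.40, adjusted p = 0.000369), with LP Treg at 13.22 and homeostatic Foxp3+ cells at 12.42, so that homeostatic Foxp3- cells (8.59) were the group that stood low. Ifng, Xcl1, which encodes the chemokine lymphotactin, and Cyp1b1 also gave a positive difference (2.53, 3.04 and 1.33). Il18r1 and Slamf7 rose in LP Tconv but fell in LP Treg. For Itga1 the difference was 1.82 ± 0.23.

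Among the 70 negative differences, 34 were genes called higher in LP Treg alone. Itgb8, which encodes the beta chain of an integrin that releases active TGF-beta, was 4.25 and 3.94 in LP Tconv, against 4.67 to 5.07 in homeostatic Foxp3- cells, all below the median of all values, while LP Treg averaged 10.55 and homeostatic Foxp3+ cells 5.01 (difference -6.37 ± 0.62). Cd83, an activation antigen, was 6.73 and 6.68 in LP Tconv, against 7.54 to 8.27 in homeostatic Foxp3- cells, and 11.26 in LP Treg, against 7.27 in homeostatic Foxp3+ cells. Il10 was called higher in both contrasts but by less in Foxp3- cells (3.30 ± 0.46, against 7.19 ± 0.46 in Foxp3+ cells, difference adjusted p = 0.00428). Klrg1 fell in LP Tconv and not in LP Treg, where it was 13.38, against 13.57 in homeostatic Foxp3+ cells (difference -3.0 ± 0.53, adjusted p = 0.00706). Arfgef3, an exchange factor family gene, was 3.57 and 3.59 in LP Tconv, against 7.73, 7.73 and 7.31 in homeostatic Foxp3- cells, and was low in every other group (difference -3.27 ± 0.35). In all, 16 genes were called in opposite directions in the contrasts. Leaving out either LP Treg array brought the count of 97 down to 55 (replicate 1) or 57 (replicate 2), and it was 157 when LP Tconv replicate 1 was omitted.

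**Figure D4:**
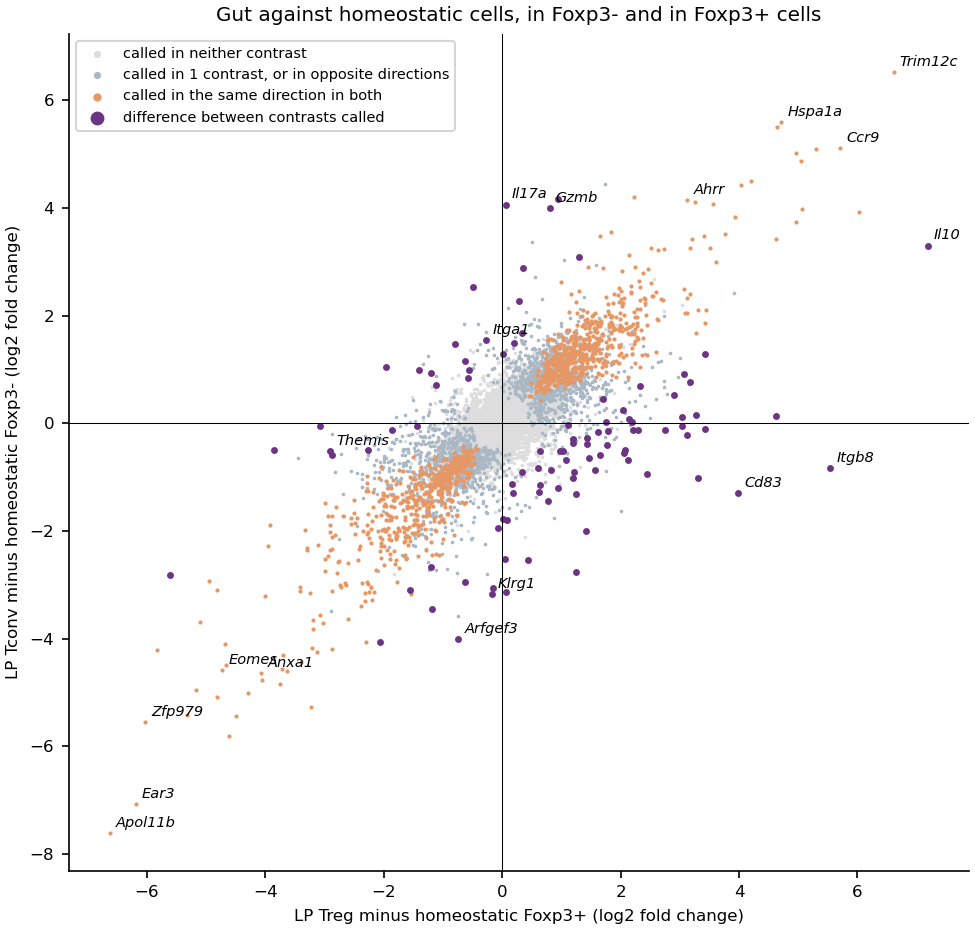
Log2 fold change of LP Tconv over homeostatic Foxp3- (vertical axis) against that of LP Treg over homeostatic Foxp3+ (horizontal axis) for each of 12516 genes, coloured by calls. Genes such as Trim12c, Hspa1a and Ccr9 at upper right and Apol11b and Ear3 at lower left moved in both contrasts, and the 97 purple genes, among them Il17a, Gzmb, Itgb8 and Cd83, differ between them.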

How the data were processed

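Sorted T cells of 9 groups were profiled on 23 arrays (Affymetrix M430v2). The authors deposited linear intensities made by RMA in GenePattern, per the labels' protocols; the version and whether all arrays were normalized together are not given in the sources used here. The intensities ran from 4.706 to 26750 over 45101 probe sets and were used as log2 values without a pseudocount. Of the probe sets, 34945 have 1 gene symbol, 932 several and 9224 none; no gene is named from the last 2 kinds. The probe set with the highest mean stood for each of 18193 genes, of which 9010 have several. The 12516 genes with a group mean above the median of all values (6.27 log2) were tested.

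limma 3.58.1 in R 4.3.3 was fitted over all 23 arrays (14 residual degrees of freedom), with Benjamini-Hochberg adjustment over all tested genes and a two-sided threshold of 0.05. A fold whose lower group mean lay under the filter is given as "at least". The contrasts were LP Tconv minus homeostatic Foxp3-, LP Treg minus homeostatic Foxp3+, their difference (interaction), and LP Treg minus the mean of the lymph node Treg subsets. In simulated data for the first contrast, 51% of 100 genes changed by 1 log2 unit and 83% of 100 changed by 2 were recovered among 12516 genes, with 4 false calls. The simulated arrays were independent, with the same spread in every group. In the data LP Tconv spread more and homeostatic arrays deviated together, so these rates may not carry over. Tables and figures were made with Python 3.11.15, pandas 2.3.3, numpy 2.4.6 and matplotlib 3.10.9.

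Named genes are the 5 given markers, the sort genes, the called genes without overlap between arrays that rose most (15) or fell most (15), up to 5 genes of smallest p per list with up to 3 called against the list's majority, the 8 smallest interaction p in each direction, the 8 genes in each direction that changed most in both contrasts, and up to 6 called in opposite directions. The members and the 35 lists were chosen with earlier results of these data known. Lists are described by counts and medians and carry no test of their own. Nothing says whether arrays of a group came from separate experiments. The p-values and standard errors rest on the spread between arrays of a group, pooled over all 9 groups. They do not measure the spread of the compared arrays alone, whose number limits the precision. Same-numbered LP Tconv and homeostatic Foxp3- arrays did not deviate together (residual r -0.0326 and -0.0645), so their numbers do not pair them, whereas same-numbered homeostatic Foxp3- and Foxp3+ arrays did (0.661, 0.58 and 0.486). Alternatives changed the normalization, the pseudocount, the filter, the probe set rule, the arrays in the fit, the variance model, the array weights and the replicate block, and left out each array. Promoter windows came from RefSeq tables (GRCm38.p6).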

Additional observations from a re-analysis of the deposited data

Results flagged for a closer look

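The difference between gut and homeostatic cells was itself tested between Foxp3- and Foxp3+ cells, as the interaction in limma, and 97 genes passed. The values that follow are the LP Tconv minus homeostatic Foxp3- difference, less the LP Treg minus homeostatic Foxp3+ difference, on the log2 scale. Positive differences of the smallest p were Il17a (4.00), Itga1 (1.82), Gzmb (3.20), B4galnt2 (2.00), Themis (2.39), Slamf7 (1.55), Il18r1 (2.14) and Pdlim4 (1.73). Themis, a T cell selection gene, was 10.48 and 10.69 in LP Tconv, against 10.96 to 11.25 in homeostatic Foxp3- cells, and its value came mainly from the Foxp3+ contrast (-2.91). Negative ones were Ky (-3.52), Matn2 (-4.50), Itgb8 (-6.37), Arfgef3 (-3.27), Ppm1l (-2.57), Dhrs3 (-3.38), Cd83 (-5.28) and Daw1 (-2.41). For Ky, Matn2 and Daw1 both Foxp3- group means lay below the median of all values, and the Foxp3+ contrast was 3.42, 4.63 and 2.29. B4galnt2 had probe sets that disagreed in direction. The homeostatic arrays of the same number pair across the Foxp3 groups, and with the replicate block the count was 104.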

How the results depend on the processing

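Of 1972 genes called between LP Tconv and homeostatic Foxp3- cells, the count was 1246 with only the 5 arrays compared, 1159 with array weights, 3342 without the dim DEC CD25- arrays 3 and 4 (median intensity 68.5 and 63.7) and 3633 without the DEC groups, an alternative chosen after seeing the data. Leaving out 1 array gave 755 to 2451, and the replicate block, which the array numbers do not bear out as a pairing, gave 1422. Quantile normalization shifted the median of all genes to -0.10, with 2167 calls of which 37.5% were higher, against 49.4%. In the Foxp3+ contrast the 2039 calls became 4136 with only the arrays compared, 4456 with array weights, 3440 without the dim arrays and 3702 without the DEC groups, and 557 to 1503 with 1 array left out. The 97 interaction genes became 179 without the dim arrays, 180 without the DEC groups and 55 to 157 with 1 array left out. The 609 genes between LP Treg and lymph node Treg became 1665 with only the arrays compared, 1659 with array weights, 1210 without the dim arrays and 116 to 532 with 1 array left out. The causes were not tested.

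Of the 149 called named genes, 99 kept the call without LP Tconv replicate 2, 106 with only the arrays compared, 116 with array weights, 122 without LP Tconv replicate 1 and 130 with the replicate block or without any 1 homeostatic array. Reversals touched uncalled genes. With 1 array left out, the log2 fold change ranged from -1.62 to 0.06 for Bcl6, -1.41 to 0.24 for Cd2, -0.05 to 1.19 for Cd247, -0.72 to 0.37 for Cd3d, -1.14 to 0.19 for Cd3e, -0.67 to 0.24 for Cd3g, -0.10 to 0.15 for Cd4, -0.04 to 1.69 for Cd5, -0.55 to 0.40 for Cd8b1, -0.17 to 0.43 for Matn2, -0.33 to 0.07 for Pdlim4 and -0.40 to 0.15 for Tnfsf14. With the mean of probe sets it was 0.26 for Lef1, 0.19 for Satb1, 0.26 for Sparc, 0.30 for Themis and 0.18 for Tnfsf14. Cd4 gave -0.17 with quantile and -0.09 with cyclic loess normalization, Cd8b1 0.00 with cyclic loess, and Matn2 -0.06 with the replicate block.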
